A study of Homo sapiens with 6 samples.

Results

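MEG3 and the small nucleolar RNA genes SNORD113 and SNORD114, which lie side by side in an imprinted interval of chromosome 14 (14q32), had higher signals in SUM159 breast cancer cells with TβRIII knockdown (TβRIII-KD) than in control cells. Of the 6 snoRNA rows, 5 rose, by 1.07 to 2.37 on the log2 scale, and MEG3 rose by 1.40. Of the 15 microRNA genes in the same interval, 1 rose, MIR382 by 0.56, and the other differences lay between -0.11 and 0.38. At the cutoff used (adjusted p under 0.05, log2 fold change over 0.5), 0.777% of all rows were higher and 1.49% lower. The protein-coding genes DLK1, RTL1 and DIO3 differed by -0.12 to 0.37, and none of these differences passed the test. The interval was chosen by the difference between TβRIII-KD and control seen in an earlier look at these arrays, so the differences below describe the members and carry no test of their own.

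The members are all rows of the deposited value table whose gene symbol is MEG3, MEG8, MEG9, RTL1, DLK1 or DIO3, begins with SNORD112, SNORD113 or SNORD114, or is a microRNA gene that the RefSeq annotation of GRCh38.p14 places between DLK1 and DIO3. This gave 25 of the 22148 rows, each with 1 gene symbol, and 0 rows with several symbols. They are 1 of the 3 long noncoding RNAs (MEG3), all 3 protein-coding genes, 6 of the 41 annotated SNORD112 to SNORD114 genes and 15 of the 54 annotated microRNA genes. MEG8, MEG9, SNORD112 and the other copies were not analysed here. None of the 25 rows repeated the values of another row.

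SUM159 is an established human cell line from a triple negative breast cancer, and both groups were grown in three-dimensional matrigel culture and labelled day 6. One group is the control and the other, labelled TGFBR3KD, carries a lentiviral short hairpin RNA against TGFBR3, the gene for TβRIII, under stable puromycin selection. Each group of 3 arrays comes from 1 cell population, so knockdown of TβRIII and whatever else sets the populations apart cannot be told apart, and the sources used here leave unsaid if arrays of 1 group were separate cultures. Errors and tests therefore measure the spread between these arrays, which may be technical. The rows hold log2 signals from Affymetrix Human Gene 1.0 ST arrays, made by the authors with the RMA method.

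TGFBR3 itself had log2 signals of 10.81, 10.89 and 10.56 on the control arrays and 9.72, 10.01 and 10.16 on the TβRIII-KD arrays, a difference of -0.79 (SE 0.13, adjusted p = 0.0145 from limma). The array medians lay between 7.67 and 7.71, and correlations across rows were 0.986 to 0.992 between groups and 0.992 to 0.996 within them. Mesenchymal markers of the line had high signals in controls, with VIM at 13.07 and CD44 at 12.24, and of the 6 luminal and epithelial markers ESR1, PGR, EPCAM and CDH1 lay between 5.08 and 6.33, FOXA1 at 7.60 and GATA3 at 7.73. Of 24 markers of this and other cell types, GATA3 rose by 0.68 (adjusted p = 0.00858) and PECAM1 fell by 1.04 (adjusted p = 0.00127). The summed signal of 3 neuroendocrine markers ranged from 9.80 to 10.44 in controls and from 9.62 to 10.57 in TβRIII-KD on the log2 scale. The summed luminal markers ranged from 9.25 to 9.31 in controls and from 9.51 to 9.67 in TβRIII-KD, and the 3 endothelial markers from 8.37 to 8.61 and from 7.92 to 7.97. The groups did not overlap in either sum, but each was carried mainly by 1 gene, since the other luminal markers differed by -0.15 to 0.18 and the other endothelial markers, CDH5 and VWF, by -0.16 and 0.08. The summed fibroblast markers ranged from 11.55 to 11.76 and from 11.17 to 11.56, and the leukocyte markers from 10.06 to 10.50 and from 9.75 to 10.24. The part of any cell mixture in the results below was not tested, and in bulk RNA more cells that use a gene and more RNA per cell cannot be told apart.

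Genes in this interval are used from 1 parental copy only. The copy inherited from the father makes the mRNAs of DLK1, RTL1 and DIO3, and the copy inherited from the mother makes noncoding RNAs that run in the same direction, among them MEG3, MEG8, MEG9, the C/D box snoRNAs of the SNORD112, SNORD113 and SNORD114 families and a large group of microRNAs. DNA methylation between DLK1 and MEG3 and at the start of MEG3 separates these states, and MEG3 is known as a gene that is often silent in tumors. C/D box snoRNAs are cut from introns and usually guide methylation of ribosomal RNA, but those of this interval have no known ribosomal target. MicroRNAs are cut from hairpins in longer transcripts and repress mRNAs that pair with their seed, bases 2 to 8 of the mature RNA.

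MEG3, the long noncoding RNA at the start of the maternally expressed group, had a 2.64-fold higher signal in TβRIII-KD. Its mean control signal lay below the median row of the table (7.69) and was not tested against background. Its log2 signal was 7.34, 7.36 and 7.32 on the control arrays and 8.37, 8.78 and 9.08 on the TβRIII-KD arrays. The groups did not overlap, and the gap between the lowest TβRIII-KD array and the highest control array was 1.01. The controls differed by 0.04 among themselves, while TβRIII-KD 1, the lowest of its group, and TβRIII-KD 3, the highest, were 0.71 apart. The mean was 7.34 ± 0.02 in controls and 8.74 ± 0.35 in TβRIII-KD (SD, n = 3 arrays per group), a difference of 1.40 (SE 0.15). By size, MEG3 was number 11 of the 172 rows that were higher in TβRIII-KD at the cutoff of an adjusted p under 0.05 and a log2 fold change over 0.5, where 0.777% of all rows are higher and 1.49% are lower. Because the earlier look used the same contrast, nothing is read from the members' counts beside these shares. MEG3 was past the cutoff whichever array was left out, with differences of 1.23 to 1.59.

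The start region of MEG3 is shown because MEG3 is the first gene of the maternally expressed group. RefSeq gives 3 windows for MEG3 that overlap, each with 250 bases before and 50 after a transcript start, and the first lies at chr14:100825858-100826157 on the plus strand of GRCh38.p14. Capitals mark a cAMP response element (TGACGTCA), whose first base lies 50 bases before the start:

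MEG3: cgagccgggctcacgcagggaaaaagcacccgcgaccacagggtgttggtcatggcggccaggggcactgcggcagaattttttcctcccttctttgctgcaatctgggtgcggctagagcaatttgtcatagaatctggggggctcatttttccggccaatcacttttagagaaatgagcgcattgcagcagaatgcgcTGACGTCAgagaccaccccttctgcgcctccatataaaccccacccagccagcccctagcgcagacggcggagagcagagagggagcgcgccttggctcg

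Searched on both strands, this element occurs in 1.85% of the 35116 start windows in the table and in all 3 MEG3 windows. A TATA-type box (TATAAA) lies 18 bases and a CCAAT box (CCAAT) 93 bases before the start, motifs that 11.5% and 34.6% of all windows hold. The short SMAD-type element CAGAC, of the kind bound by effectors of TGF-β receptors, occurs 1 time, past the start, and 45.3% of all windows hold it. None of these motifs overlaps another, and neither a GC box (GGGCGG, in 45.0% of windows) nor an AP-1 element (TGACTCA, in 4.95%) is in the window. The window holds 19 CpG pairs, the sites of DNA methylation, where the median window holds 14. These matches describe letters only, and methylation was not measured.

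The snoRNA rows come next in gene order. All 6 lie within the RefSeq span of MEG8, the long noncoding RNA whose introns carry the 41 annotated SNORD112 to SNORD114 copies. Probe sequences were not used here, so it is open whether the probes of 1 row also match other copies. The rows may therefore not be separate measurements. Of these 6 rows, 5 rose and 0 fell at the cutoff, where 0.777% of all rows are higher and 1.49% are lower. The median difference was 1.51, and the range was 0.61 to 2.37, where the median over all rows of the table was 0.01. Their mean control signals, from 3.54 to 5.57, lay below the median row of the table (7.69), and no row was tested against background, so the folds given here are ratios of signal and not of RNA amount. In 5 of the 6 rows every TβRIII-KD array lay above every control array, as it did in 10% of all rows (2217 of 22148).

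SNORD114-3, an orphan C/D box snoRNA like the rest of its family, had the largest difference of the interval. Its log2 signal was 5.09, 5.80 and 5.32 on the control arrays and 6.94, 7.55 and 8.83 on the TβRIII-KD arrays. The lowest TβRIII-KD array lay 1.14 above the highest control, and TβRIII-KD 3 stood above the other knockdown arrays. The means were 5.40 ± 0.36 and 7.77 ± 0.96 (SD, n = 3 arrays per group), a difference of 2.37 (SE 0.41) or 5.17-fold, number 2 of the 172 higher rows. Its row also lists a cDNA record beside the snoRNA, so its probes may read a longer transcript.

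SNORD113-4 had signals of 3.86, 4.46 and 3.73 in controls and 5.18, 6.02 and 6.58 in TβRIII-KD. The difference was 1.91 (SE 0.33) or 3.76-fold, number 4 of the higher rows. The groups lay 0.72 apart, control 2 was the highest control and TβRIII-KD 1 the lowest knockdown array. The last snoRNA row in gene order, SNORD114-26, had signals of 5.21, 5.98 and 5.53 in controls and 6.54, 7.16 and 7.88 in TβRIII-KD, a difference of 1.62 (SE 0.31) or 3.08-fold and number 6 of the higher rows. Again control 2 and TβRIII-KD 1 were the arrays closest to each other, 0.56 apart. SNORD114-2 had signals of 3.59, 3.42 and 3.61 in controls and 4.10, 5.26 and 5.46 in TβRIII-KD, a difference of 1.40 (SE 0.30). Here control 2 was the lowest control, and TβRIII-KD 1 stood closer to the controls than to the other knockdown arrays.

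SNORD113-3 had signals of 4.19, 4.48 and 4.43 in controls and 4.94, 5.34 and 6.04 in TβRIII-KD, a difference of 1.07 (SE 0.24). The groups lay 0.46 apart, and of the 7 rows past the cutoff this one was closest to its limit on the adjusted p, while MIR382 was closest to its fold limit. SNORD114-6 was the snoRNA row that did not pass, with signals of 3.25, 3.68 and 3.89 in controls and 3.81, 4.43 and 4.41 in TβRIII-KD. Its TβRIII-KD 1 lay below control 3, so the groups overlapped, and the difference was 0.61 (SE 0.20).

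**Figure D1:**
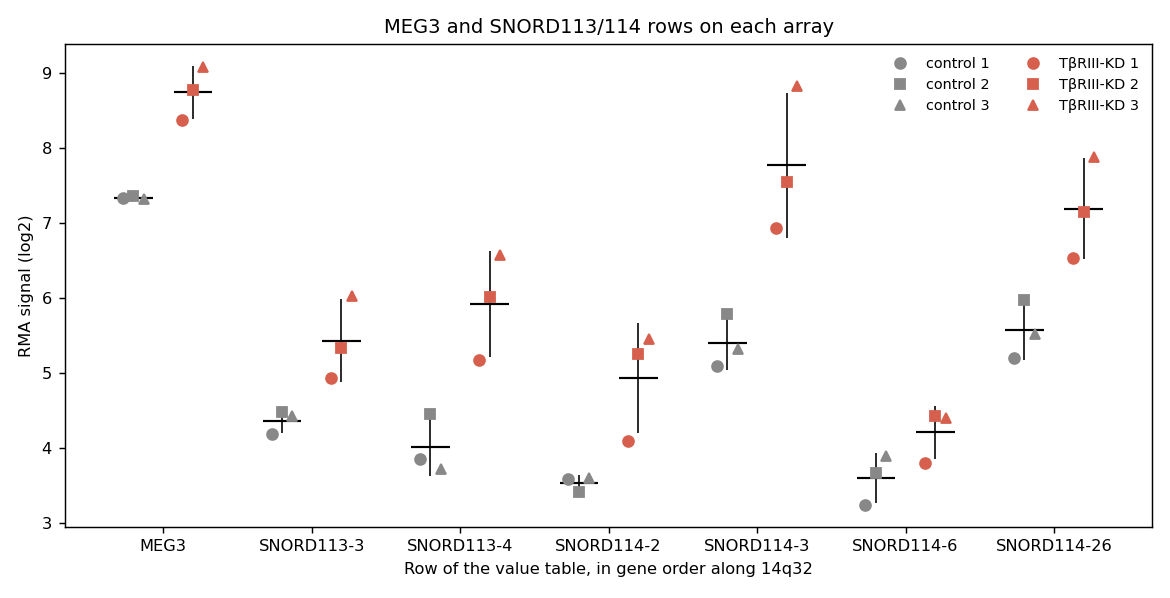
RMA signal (log2) of MEG3 and the 6 snoRNA rows in gene order, with 1 symbol per array (circle, square and triangle for replicates 1, 2 and 3), controls in grey, red symbols for TβRIII-KD, and lines for the mean and SD of each group of 3. The TβRIII-KD arrays lie above the controls in every row except SNORD114-6, where TβRIII-KD 1 (3.81) lies below control 3 (3.89).

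The TβRIII-KD arrays kept a similar order in these rows. TβRIII-KD 1 was the lowest of the 3 in 7 of 7 rows of MEG3 and the snoRNAs (31.8% of all rows), TβRIII-KD 3 was the highest in 6 of 7 (30.9%), and the full order from TβRIII-KD 1 over TβRIII-KD 2 to TβRIII-KD 3 held in 6 of 7 (15.1%). The range of the TβRIII-KD arrays was wider than that of the controls in 6 of 7 rows, against 63.7% of all rows. The difference of each TβRIII-KD array from the control mean was 1.03, 1.44 and 1.74 for MEG3 and 1.53, 2.15 and 3.43 for SNORD114-3. SNORD114-26 had differences of 0.97, 1.58 and 2.31. TGFBR3, which was lower in TβRIII-KD, had the same order, from TβRIII-KD 1 (9.72) to TβRIII-KD 3 (10.16), as 15.1% of all rows did. The array with the lowest TGFBR3 thus had the smallest MEG3 difference, and a link between the genes was not tested. Among the controls, control 2 was the highest in 5 of the 7 rows, where it was so in 35.8% of all rows.

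Without TβRIII-KD 3 the median difference of the snoRNA rows was 1.21, and without TβRIII-KD 1 it was 1.88. The number of members past the cutoff was 7 without TβRIII-KD 1 and 5 without TβRIII-KD 3, when SNORD114-2 and MIR382 were lost. It was 4 without control 2, and 1, MEG3 alone, without control 1, without control 3 or without TβRIII-KD 2. With these same 3 arrays left out in turn, the number of rows in the whole table that were higher at the cutoff was 88, 110 and 104 in place of 172. Leaving out TβRIII-KD 1 gave 164 such rows, leaving out control 2 gave 138, and leaving out TβRIII-KD 3 gave 251. The snoRNA differences kept their sign in each of these fits, at 0.43 or more for SNORD114-6 and 0.77 or more for the other rows.

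**Figure D2:**
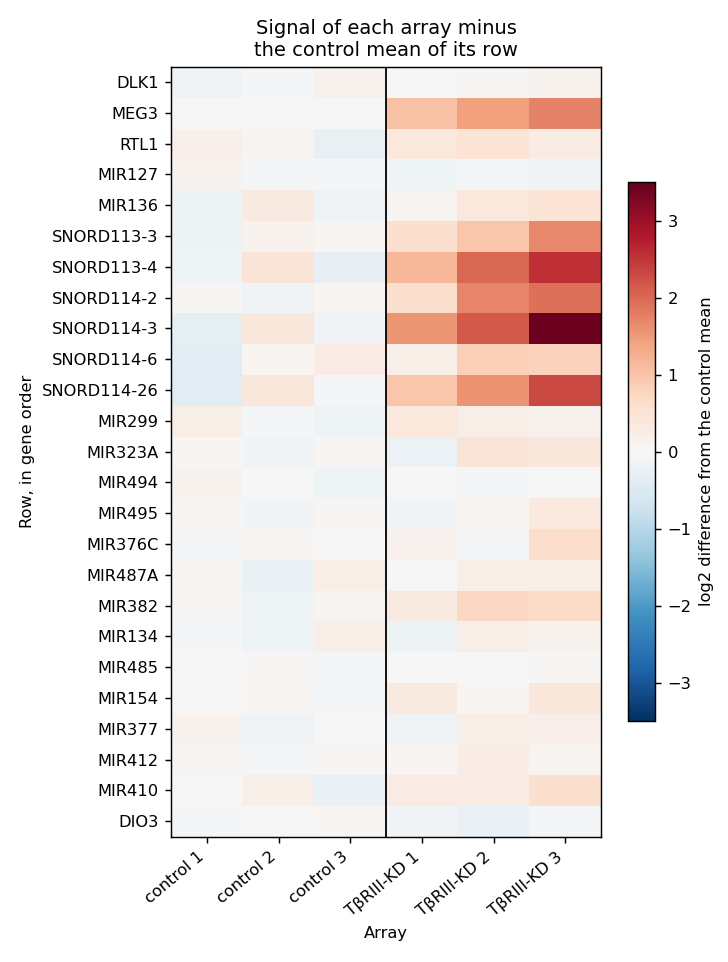
Signal of each of the 6 arrays minus the control mean of its row, on the log2 scale (red above, blue below), for the 25 members in gene order from DLK1 at the top to DIO3 at the bottom. The red block covers MEG3 and the snoRNA rows on the TβRIII-KD arrays and reaches 3.43 for SNORD114-3 on TβRIII-KD 3, while most microRNA rows stay pale.

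The microRNA rows fall into a group of 2 near RTL1 and a group of 13 past the end of MEG8. MIR127 and MIR136 lie within the span of RTL1 on the opposite strand, and MIR299 to MIR410 follow the snoRNAs. In all, 1 of 15 rose and 0 fell at the cutoff, where 0.777% of all rows are higher and 1.49% are lower. The median difference was 0.16, and 13 of 15 differences were above 0, as were 12107 of all 22148 rows. In 3 of 15 rows all TβRIII-KD arrays lay above all controls, as they did in 2217 of all 22148 rows. In 1 row, MIR127, all lay below (10.7% of all rows). The smallest snoRNA difference, 0.61 for SNORD114-6, was above the largest microRNA difference, 0.56 for MIR382. This order turned without control 1 (0.43 against 0.59) and without TβRIII-KD 3 (0.51 against 0.52). A microRNA or snoRNA row gives 1 signal per array, in which mature RNA, precursor and the longer host transcript cannot be told apart.

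MIR382 had log2 signals of 3.89, 3.69 and 3.92 in controls and 4.15, 4.54 and 4.49 in TβRIII-KD. The groups did not overlap and lay 0.24 apart, with TβRIII-KD 1 again the lowest knockdown array. The difference was 0.56 (SE 0.12) or 1.48-fold, number 138 of the 172 higher rows and close to the fold limit of 0.5. Its call was lost when any single array other than TβRIII-KD 1 was left out, with differences of 0.49 to 0.61, and it was kept at 0.69 without TβRIII-KD 1. The MIR382 hairpin lies at chr14:101054306-101054381 on the plus strand of GRCh38.p14, and it is shown as the only microRNA row past the cutoff, with the mature arms miR-382-5p and miR-382-3p in capitals in that order:

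MIR382: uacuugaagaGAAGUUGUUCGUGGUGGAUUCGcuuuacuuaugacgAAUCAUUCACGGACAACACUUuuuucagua

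MIR410 and MIR412 were the other rows without overlap in the direction of MEG3. MIR410 had signals of 3.65, 3.86 and 3.42 in controls and 3.94, 3.92 and 4.20 in TβRIII-KD, a difference of 0.38 (SE 0.13) with a gap of 0.07 between the groups. MIR412 had signals of 4.97, 4.85 and 4.97 in controls and 4.99, 5.18 and 5.03 in TβRIII-KD, a difference of 0.13 (SE 0.08) with a gap of 0.01. MIR136 (0.32), MIR154 (0.26), MIR299 (0.24), MIR376C (0.23), MIR323A (0.22), MIR487A (0.16), MIR495 (0.11) and MIR377 (0.08) had overlapping groups. MIR154 overlapped only between control 2 at 4.46 and TβRIII-KD 2 at 4.45.

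Nearest to 0 were MIR494 at -0.01 (SE 0.09), MIR485 at 0.02 (SE 0.07) and MIR134, whose product acts in neurons, at 0.05 (SE 0.13). MIR485 had signals of 5.40, 5.42 and 5.35 in controls and 5.39, 5.40 and 5.44 in TβRIII-KD, and its 95% confidence interval for the difference ran from -0.13 to 0.17. Its groups overlapped, although TβRIII-KD 3 was above and control 3 below the other arrays, and the MIR485 gene follows MIR382 and MIR134 in gene order. MIR127, which lies opposite RTL1, had signals of 6.70, 6.54 and 6.53 in controls and 6.44, 6.51 and 6.49 in TβRIII-KD, a difference of -0.11 (95% confidence interval -0.28 to 0.07). Its TβRIII-KD arrays all lay below the controls. Like the snoRNA rows, all 15 microRNA rows had mean control signals below the median row of the table, from 2.30 for MIR376C to 7.33 for MIR134, and background probes were not used here, so a small difference in the lowest rows may not have been detectable.

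**Figure D3:**
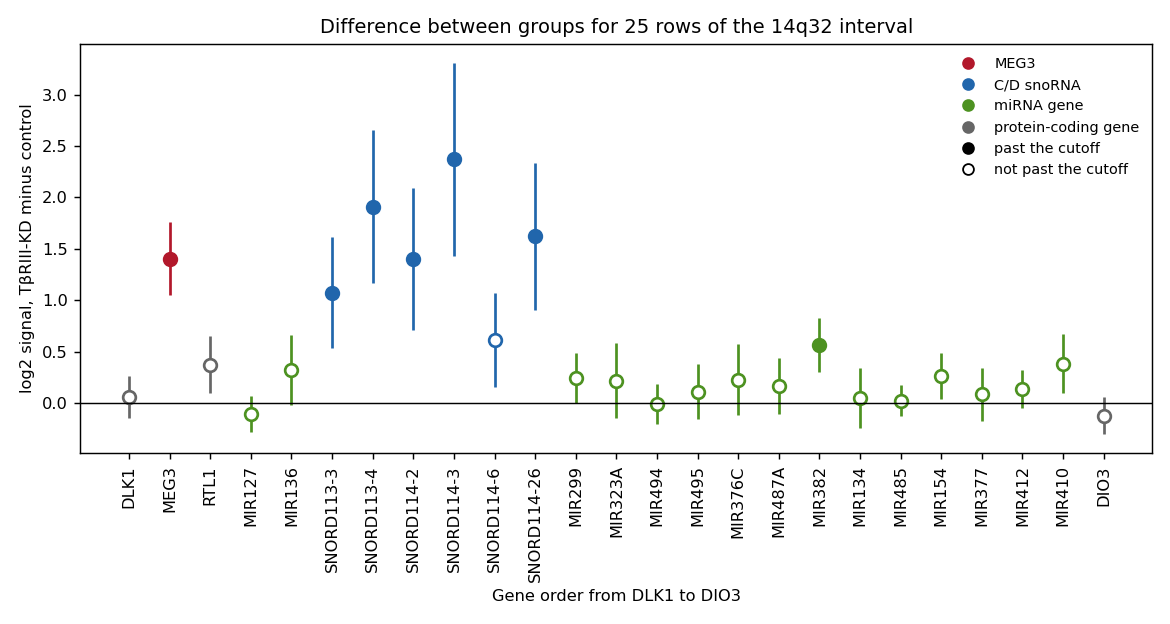
Difference in log2 signal (TβRIII-KD minus control) for the 25 members in gene order, with dots for the difference, lines for the 95% interval limma gives with 3 arrays a side, filled dots for rows past the cutoff and colors for the kind of gene. MEG3 (1.40) and the snoRNAs (0.61 to 2.37) stand above the microRNA genes (-0.11 to 0.56) and the protein-coding genes (-0.12 to 0.37).

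Mature arms of different member genes that share a seed are shown to set the differences of their rows side by side. The rows do not measure the mature arms apart from their precursors. RefSeq holds both mature arms of all 15 member genes, 30 arms with 28 different seeds, and 7 of these arms share their seed with another arm of the interval, of which miR-376c-5p, miR-487a-5p and miR-485-3p share it only with arms of genes that are no members. The seed (bases 2 to 8) is in capitals, and the pairs below share it or, for miR-382-5p and miR-495-5p, share its first 6 bases:

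hsa-miR-410-5p: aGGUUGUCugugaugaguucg

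hsa-miR-494-5p: aGGUUGUCcguguugucuucucu

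hsa-miR-154-3p: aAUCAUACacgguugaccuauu

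hsa-miR-487a-3p: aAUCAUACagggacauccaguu

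hsa-miR-382-5p: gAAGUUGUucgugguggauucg

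hsa-miR-495-5p: gAAGUUGCccauguuauuuucg

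MIR410 and MIR494, whose 5p arms share a seed, had differences of 0.38 and -0.01. MIR154 and MIR487A, whose 3p arms share a seed, had differences of 0.26 and 0.16, and MIR382 and MIR495 had differences of 0.56 and 0.11. The seed of miR-410-5p and miR-494-5p occurs in 3 of the 94 mature arms from the whole interval and in 3 of the 2370 human arms in the table. The seeds of miR-382-5p and miR-382-3p each occur in 1 human arm, their own.

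The paternally expressed genes at both ends and in the middle of the interval did not pass the test in either direction. DLK1, a membrane ligand related to Notch ligands, had signals of 6.96, 7.05 and 7.22 in controls and 7.06, 7.13 and 7.20 in TβRIII-KD. The groups overlapped, and the difference was 0.06 (SE 0.09, 95% confidence interval -0.14 to 0.26). DIO3, the deiodinase that inactivates thyroid hormone, had signals of 6.30, 6.31 and 6.39 in controls and 6.24, 6.10 and 6.30 in TβRIII-KD, a difference of -0.12 (SE 0.08, 95% confidence interval -0.30 to 0.06). TβRIII-KD 3 and control 1 both read 6.30, and the other knockdown arrays lay below all controls. DIO3OS, the noncoding neighbor of DIO3 and no member, had a difference of 0.10 (SE 0.09).

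RTL1, a gene derived from a retrotransposon, was the protein-coding member with the largest difference. It had signals of 5.67, 5.61 and 5.24 in controls and 5.87, 5.99 and 5.77 in TβRIII-KD, a difference of 0.37 (SE 0.12). Its groups did not overlap, with a gap of 0.10, and control 3 was lower than the other controls. RTL1 did not pass the test after adjustment (adjusted p = 0.17 from limma), although its unadjusted 95% confidence interval, 0.09 to 0.65, lay above 0. Its highest knockdown array was TβRIII-KD 2, as for SNORD114-6.

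Small RNA genes elsewhere in the genome were set beside the members. Of 40 SNORD115 and SNORD116 copies, the imprinted C/D box snoRNAs of chromosome 15, 0 passed the cutoff in limma (5 had an unadjusted p under 0.05, and 1 by the methods' t-test), the median difference was 0.0036, and the range was -0.43 to 0.38. SNORD115-3 had the smallest p of them, with a difference of 0.31 (adjusted p = 0.154). The median pools both families, and differences ran from -0.43 to 0.33 for SNORD116 and from -0.14 to 0.38 for SNORD115. Mean control signals were 3.63 to 12.80 for SNORD116 but only 2.18 to 3.75 for SNORD115. No row was tested against background, so a difference in the SNORD115 rows may not have been detectable. Of 145 other snoRNA and small Cajal body RNA genes, 0 passed (12 had an unadjusted p under 0.05, and 5 by the methods' t-test), with a median of -0.04 and a range of -0.58 to 0.36, and SNORD56B at -0.47 (adjusted p = 0.0170) was under the fold limit. The smallest difference of the 6 members, 0.61, is above the largest of both sets, and the difference between the sets was not tested. Of 157 microRNA genes elsewhere, 0 rose and 1 fell, MIR95 by 2.37 (SE 0.31, adjusted p = 0.00534), with a median of 0.09 (quartiles -0.03 and 0.16), next to the 0.16 of the 15 members. Signals of the chromosome 15 snoRNAs had a median of 4.64 on TβRIII-KD 3 and between 3.58 and 4.01 on the other 5 arrays. This median falls at the boundary between the higher SNORD116 and the lower SNORD115 rows, so it rests on few rows. On TβRIII-KD 3 it lay between SNORD116-16 (4.89) and SNORD115-32 (4.39). The summed signals of the 40 rows were 14.34, 14.15 and 14.41 in controls and 14.12, 13.90 and 14.59 in TβRIII-KD on the log2 scale. The other snoRNA genes had medians of 7.77, 7.68 and 7.93 on the TβRIII-KD arrays and 7.89, 7.81 and 8.04 on the controls. These medians were lowest on TβRIII-KD 2 and highest on control 3, and in both groups replicate 2 was lowest and replicate 3 highest. The part of such array differences in the members' values was not tested.

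**Figure D4:**
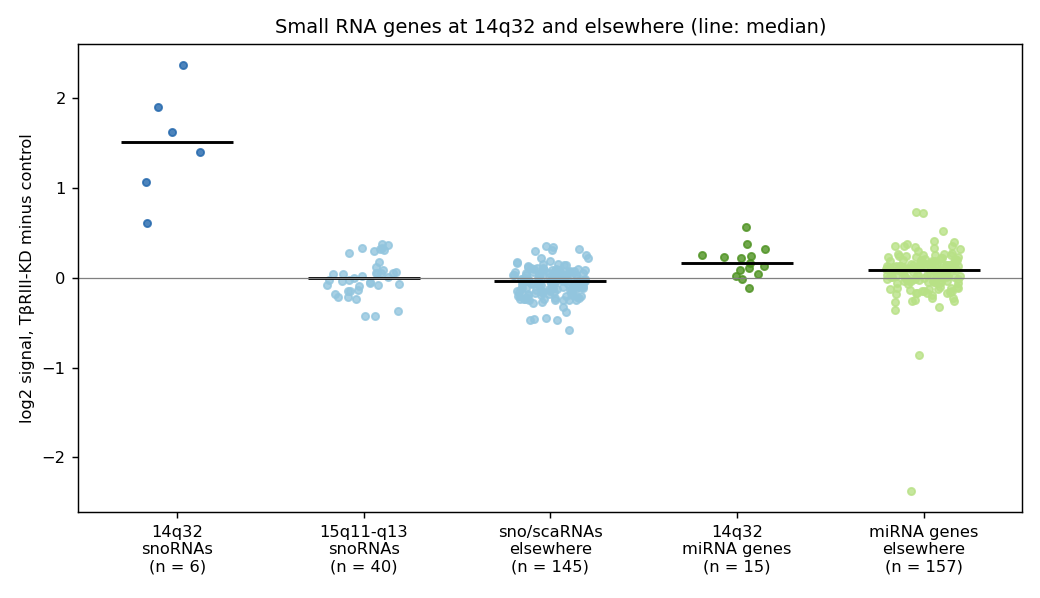
Difference in log2 signal (TβRIII-KD minus control) of single genes, with 1 dot per gene and a line for the median, for snoRNA and microRNA genes of 14q32 and elsewhere. The 14q32 snoRNAs (median 1.51) lie above all 15q11-q13 snoRNAs (up to 0.38) and all other snoRNA genes (up to 0.36), while the microRNA genes of 14q32 (median 0.16) lie within the range of those elsewhere.

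Genes that flank the interval, other imprinted genes and the machinery of imprinting and of small RNAs were also set beside the members. At the cutoff 0.777% of all rows are higher and 1.49% are lower. Without adjustment, 3365 of all 22148 rows had a p under 0.05 in limma. By the methods' t-test 1370 were higher and 1586 lower without adjustment. Of 14 genes on the DLK1 side, 0 passed the cutoff in limma and 0 had an unadjusted p under 0.05, also by the methods' t-test. WARS1, a tRNA synthetase, had the smallest p of them, with a difference of 0.22 (SE 0.13, adjusted p = 0.491). Of 16 genes on the DIO3 side, MOK, a kinase, fell by 0.54 (SE 0.10, adjusted p = 0.0204), and 0 rose (3 had an unadjusted p under 0.05, and 5 by the methods' t-test). The median differences of the flanking sets were 0.06 and 0.0003. Of 46 other imprinted genes listed, 34 had a row with 1 symbol. Of these 34, 1 passed, TP73 of the p53 family, which rose by 0.90 (SE 0.11, adjusted p = 0.00426). Their median was 0.03 (5 had an unadjusted p under 0.05, and 6 by the methods' t-test).

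Of 22 genes for imprint maintenance and DNA methylation, 0 passed (0 with an unadjusted p under 0.05 in limma and 1 by the methods' t-test), with a median of 0.08. TRIM28, a corepressor that keeps imprints with KRAB zinc finger proteins, had the smallest p, with a difference of 0.15 (SE 0.07, adjusted p = 0.398). Of 12 C/D snoRNP proteins and assembly factors, 0 passed (2 with an unadjusted p under 0.05 in limma, and 2 by the methods' t-test), and the core protein NOP58 had a difference of -0.21 (SE 0.08, adjusted p = 0.260). Of 15 microRNA processing genes, 0 passed (2 with an unadjusted p under 0.05, and 3 by the methods' t-test), and the smallest p was that of TNRC6A, a partner of Argonaute, at 0.23 (SE 0.07, adjusted p = 0.115). Only 3 of 15 listed host genes of other snoRNAs and 2 of 8 other listed long noncoding RNAs had a row with 1 symbol. Among the host genes TAF1D had a difference of -0.08 (SE 0.08), and among the long noncoding RNAs TUG1 had a difference of 0.13. None of these 5 passed in limma, 0 had an unadjusted p under 0.05, and 1 did by the methods' t-test.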

How the data were processed

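RNA of SUM159 cells in three-dimensional culture was measured on 6 Affymetrix arrays, 3 control and 3 TβRIII-KD. The deposited values are log2 signals, which the authors made with RMA in oligo under R 3.0.1; oligo's version is not given in the sources used here. Rows were named from the platform annotation (19129 with 1 symbol, 1735 with several, 1284 with none) and ordered by RefSeq, GRCh38.p14. TβRIII-KD was compared with control in limma 3.58.1 under R 4.3.3 (no trend, no block, two-sided), with Benjamini-Hochberg adjustment over all 22148 rows. The cutoff asks for an adjusted p below 0.05 together with a log2 change of more than 0.5 in either direction. It is the rule by which the study took genes into its pathway analysis. SE is limma's. Genes of a list were taken from the 1-symbol row with the highest mean signal. Full values are given for MEG3, the protein-coding members, members past the cutoff and those nearest to 0, and further members were picked with their values in view. The fit was run on simulated arrays with independent normal noise in each row. They hold no effects shared across an array or a cell population, so that run cannot speak to such effects. Members and lists were chosen with earlier results of these data known. The methods' t-test is the unpaired two-tailed test of the study's statistics section. Precision is limited by having 3 arrays a side.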

Additional observations from a re-analysis of the deposited data

How the results depend on the processing

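The fit was repeated under 19 alternatives (moderation, weighting, scaling, filters, repeated rows, fold limits, a replicate block, the methods' t-test and each array left out). Differences, and so their direction, could change only with array weights, scaling or an array left out. The other alternatives leave each difference as it was. Where it could change, MEG3 and the 6 snoRNA rows kept their direction. The number of members higher at the cutoff was 7, was 1 to 7 without any 1 array, 8 with the replicate block, which adds SNORD114-6, 1 with rows at or above the median mean signal, where MEG3 is the only member and the members' median is 1.40, and 0 by the methods' t-test after adjustment, where the difference of MEG3 is the same. By that test without adjustment, 7 members were higher and 0 lower, against 6.19% higher of all rows. In limma without adjustment, 11 of the 25 members had a p under 0.05, against 3365 of all 22148 rows. The number lower was 0 throughout. Samples of equal number were not taken as pairs, since their deviations over all rows correlated at -0.06, 0.11 and 0.31. The medians of the snoRNA genes elsewhere did share their replicate order between the groups. The related lists held 3 calls in all, 2 to 5 without any 1 array, 7 with the block, 1 with a fold limit of 1 and 0 by the methods' t-test. The differences of MIR494 (-0.083 to 0.049), MIR134 (-0.034 to 0.16) and MIR495 (-0.011 to 0.22) changed sign with 1 array left out, and that of MIR485 was -0.0047 after repeated quantile normalization. SNORD113-3 lost its call with arrays centred on their medians, repeated quantile normalization or robust moderation. For these changes the cause was not tested, apart from the fewer rows or arrays in a fit. Signal over background was not used here.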
